A study of Homo sapiens with 12 samples.

Results

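PC9 cells carrying a ZNF263 expression vector were compared with PC9 cells carrying a control vector by RNA-seq, with 2 libraries of each. These 4 libraries are the PC9 libraries among the 12 of a series that also holds HCC827 and H1975, and they were taken by their cell line and genotype labels. PC9 is an established human lung adenocarcinoma line that carries an activating deletion in EGFR, and it is widely used as a model of tumours that depend on EGFR kinase activity. Per the labels' protocols, all cells of the series were cultured in DMEM and taken through stepwise exposure to osimertinib, a covalent EGFR inhibitor, so the control cells share that exposure. The labels give neither the promoter that drives ZNF263, nor the doses, nor whether a line was 1 clone or a pool, and they add OR to each title without explaining it. Separate cultures for the libraries of a vector are not stated either, and the p-values rest on the spread among these libraries, whose source may be technical.

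Of 20003 genes in the table, 10965 reached 1 FPKM in 2 of the 4 libraries, or in more of them, and were tested, and 9038 did not. Nearest that level, KPNA5 had 1.23 and 0.995 FPKM with ZNF263 and 1.0006 and 0.930 FPKM with control and was tested, while ANKAR had 0.9995 and 1.04 FPKM with ZNF263 and 0.850 and 0.785 FPKM with control and was not. A gene below that level in both libraries of 1 vector was tested only through the other vector's libraries and had to be higher there. FPKM is a level corrected for gene length and library size. A log2 change here is the mean of log2(FPKM + 1) with ZNF263 minus that with control, a scale that understates the change of genes at low levels. Changes were tested with limma, with the spread between libraries estimated over all 12 libraries and p-values adjusted over all genes tested, and a gene was called, or said to have risen or fallen, at an adjusted p under 0.05. A call is said to have held where the gene was also called in each of the 4 fits that left out 1 PC9 library. A level of 1 FPKM in the median gene equalled 70.2 and 72.7 reads in the ZNF263 libraries and 76.0 and 80.0 reads in the control libraries.

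ZNF263 is a nuclear protein with a SCAN domain, a KRAB domain and an array of zinc fingers. KRAB domains of many zinc finger proteins recruit the co-repressor TRIM28, and ZNF263 is known to bind purine-rich DNA with GGA repeats. EGFR is the receptor tyrosine kinase that starts the RAS, RAF, MEK and ERK cascade, and ERK in turn induces transcription factors of the AP-1 and ETS families together with phosphatases that restrain it. In the airway epithelium EGFR signalling is best known for wound repair and for mucus production by secretory cells.

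The labelled cell type was checked against 14 markers of lung epithelium and adenocarcinoma, of which 5 reached the level for testing. The simple epithelial keratins were abundant, with KRT7 at 570.2 and 518 FPKM in the ZNF263 libraries and 527 and 527 FPKM in the control libraries. EPCAM, an adhesion protein of most epithelial tumours, was at 0.224 and 0.278 FPKM with ZNF263 and 0.414 and 0.168 FPKM with control, whereas in the 8 libraries of the other lines it lay between 31.2 and 286 FPKM. KRT19, a keratin of lung adenocarcinoma, had at most 0.262 FPKM in any PC9 library and at least 233 FPKM in every library of the other lines. NKX2-1, the lineage factor of the lung, and NAPSA and the surfactant genes were all below 1 FPKM in the 4 PC9 libraries. In the 4 H1975 libraries NKX2-1 lay between 4.70 and 6.09 FPKM, but NAPSA was at most 0.349 FPKM. Of the surfactant genes only SFTPC reached 1 FPKM there, in 1 library. These defining markers were therefore near absent from both vectors' libraries. For EPCAM, KRT19 and NKX2-1 this set PC9 apart from both other lines and goes against the label of a lung adenocarcinoma line. Low NAPSA and surfactant genes were shared with H1975. The identity of the cells was not tested, so PC9 here means the libraries labelled PC9, and the EGFR deletion is a property of the line as described and was not read from these data. Of the genes tested, 317 had values in the PC9 columns only, and levels across lines are set side by side as a description.

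Markers of other cell types were few. Fibroblast markers (1 of 8), immune markers (1 of 11), endothelial markers (0 of 7) and neuroendocrine markers (0 of 8) reached the level for testing in the numbers given, and neither of those tested was called. Of 7 squamous and basal markers 2 did, TP63 and SOX2, while KRT5, KRT14, KRT6A, DSG3 and KRT13 were below 0.1 FPKM in every PC9 library. TP63, a transcription factor of basal cells, had 14.5 and 15.6 FPKM with ZNF263 and 10.8 and 9.98 FPKM with control, a change of 0.49 (limma adjusted p = 0.0115), a call lost without ZNF263 library 1, ZNF263 library 2 or control library 2 (adjusted p = 0.0506, 0.093 and 0.114). The summed level of the squamous and basal list was 16.2 and 16.9 FPKM with ZNF263 and 12.4 and 11.8 FPKM with control, and its part in the epithelial and secretory changes given below was not tested.

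ZNF263 itself was higher in the libraries labelled ZNF263. It lies on chromosome 16, bases 3263800 to 3301401 (GRCh38, plus strand) and had 39.3 and 38.98 FPKM in the ZNF263 libraries, against 9.55 and 9.11 FPKM in the control libraries. The groups did not overlap, and the log2 change was 1.96 ± 0.062 (SE, limma adjusted p = 7.66e-10). The control cells thus carried ZNF263 transcript of their own, and what is compared is a raised level against that level. The values rest on 3130 and 3214 reads with ZNF263 and 824 and 827 with control.

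In all, 1448 of the 10965 genes were called (13.2%), of which 897 were higher with ZNF263 (8.18% of genes tested) and 551 lower (5.03%). The median size of a called change was 0.34 on the log2 scale, 45 called genes changed by at least 1, and 40 of those 45 were higher with ZNF263. The median change of all genes was -0.0095. Counts of calls in the gene lists below are to be read against the shares of 8.18% higher and 5.03% lower. Every called gene had ZNF263 and control values that did not overlap, but so did 60.7% of all genes tested, so with 2 libraries a group the absence of overlap says little by itself. The number of calls was 768 without ZNF263 library 1, 941 without ZNF263 library 2, 836 without control library 1 and 630 without control library 2, and 510 of the 1448 calls held. In bulk RNA, fewer cells of a kind and less RNA per cell cannot be told apart, here and below.

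**Figure D1:**
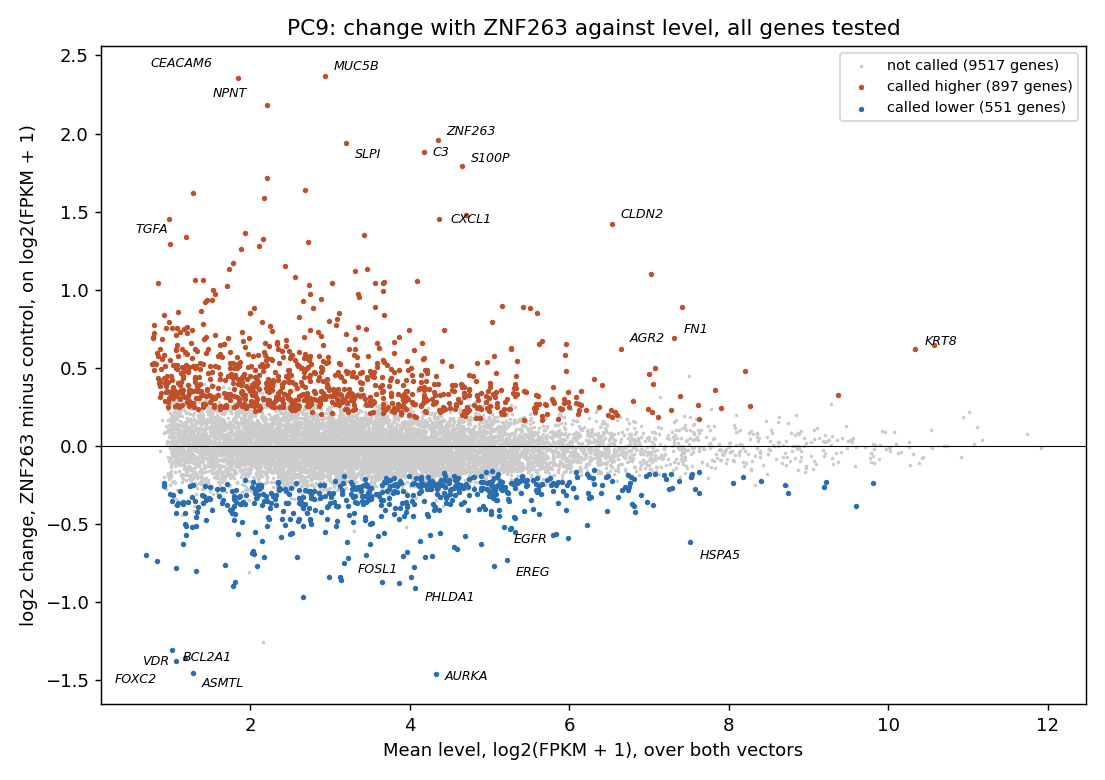
Change with ZNF263 (vertical, log2(FPKM + 1) scale, ZNF263 minus control) against mean level over both vectors (horizontal, log2(FPKM + 1)) for the 10965 genes tested in PC9, with 897 called higher in orange, 551 called lower in blue and the rest in grey. The large changes are mostly rises of genes of low to middle level, such as MUC5B and CEACAM6, and changes of the most abundant genes are mostly small.

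Promoter windows of 4 genes whose results are described below are given first, since they show the kind of GGA-repeat sequence that ZNF263 is known to bind. The windows run from 250 bases before to 50 bases after the gene start in RefSeq (GRCh38.p14), are written 5′ to 3′ on the gene's strand, and have in capitals each match to GGAGGA or its reverse complement TCCTCC, with overlapping matches merged. EGFR is shown as the receptor under study, TGFA as its ligand, and CEACAM6 and NPNT as 2 of the largest rises.
EGFR (chr7:55018767-55019066, plus strand): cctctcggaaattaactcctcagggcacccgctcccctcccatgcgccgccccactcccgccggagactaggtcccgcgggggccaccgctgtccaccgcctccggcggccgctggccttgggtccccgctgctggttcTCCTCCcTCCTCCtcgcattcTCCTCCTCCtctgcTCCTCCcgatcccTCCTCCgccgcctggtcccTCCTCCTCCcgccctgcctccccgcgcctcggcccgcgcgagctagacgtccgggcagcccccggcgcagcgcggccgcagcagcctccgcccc
TGFA (chr2:70553777-70554076, minus strand): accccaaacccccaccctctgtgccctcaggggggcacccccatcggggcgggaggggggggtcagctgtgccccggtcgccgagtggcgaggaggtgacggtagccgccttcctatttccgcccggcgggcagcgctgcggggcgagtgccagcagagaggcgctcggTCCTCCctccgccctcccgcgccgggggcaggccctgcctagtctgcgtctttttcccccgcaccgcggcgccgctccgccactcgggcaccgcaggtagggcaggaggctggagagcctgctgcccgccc
CEACAM6 (chr19:41755280-41755579, plus strand): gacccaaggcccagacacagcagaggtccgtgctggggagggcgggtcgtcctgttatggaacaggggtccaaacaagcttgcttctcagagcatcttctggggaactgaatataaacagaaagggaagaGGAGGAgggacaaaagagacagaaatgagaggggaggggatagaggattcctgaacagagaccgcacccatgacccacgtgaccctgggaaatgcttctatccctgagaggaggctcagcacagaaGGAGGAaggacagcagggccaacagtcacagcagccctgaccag
NPNT (chr4:105895221-105895520, plus strand): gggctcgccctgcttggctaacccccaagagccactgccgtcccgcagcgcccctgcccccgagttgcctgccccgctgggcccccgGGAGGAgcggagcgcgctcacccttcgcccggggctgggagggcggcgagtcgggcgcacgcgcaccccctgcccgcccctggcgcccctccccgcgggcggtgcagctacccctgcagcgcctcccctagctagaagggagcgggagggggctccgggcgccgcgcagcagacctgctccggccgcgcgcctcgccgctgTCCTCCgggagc
The EGFR window holds 8 matches, all to TCCTCC and some overlapping, and the TGFA window holds 1. CEACAM6 has 2 matches to GGAGGA and NPNT has 1 on each strand. The motif is common: 36.1% of all 27305 RefSeq windows of this length hold it (36.05), and 40.1% of the 8756 windows that could be matched by symbol to a tested gene. It was found in 44.7% of 662 windows of genes called higher, 43.3% of 427 of genes called lower and 39.5% of 7667 of genes not called. A match is a stretch of letters and not a measured binding site, since binding was not measured in these libraries.

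EGFR was lower with ZNF263, while its family and ligands changed in both directions. EGFR had 28.8 and 30.04 FPKM in the ZNF263 libraries, against 42.1 and 42.9 FPKM in the control libraries, and its log2 level fell by 0.52 ± 0.05 (SE) with a limma adjusted p of 1.18e-05, and the call held. ERBB3, a partner receptor with little kinase activity of its own that couples to PI3K, had 2.32 and 2.19 FPKM with ZNF263, against 4.41 and 4.10 FPKM with the control vector, and fell by 0.69 ± 0.081 (adjusted p = 6.69e-05). ERBB2, the partner that binds no ligand, went the other way, with 22.9 and 21.7 FPKM with ZNF263 and 17.7 and 17.4 FPKM with control, a rise of 0.33 ± 0.062 (adjusted p = 0.0032). In each of the 3 receptors the libraries of the vectors did not overlap.

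Among the ligands, TGFA was higher and EREG was lower. TGFA, transforming growth factor alpha, had 2.56 and 2.73 FPKM in the ZNF263 libraries, against 0.426 and 0.455 FPKM in the control libraries, a rise of 1.34 ± 0.083 (limma adjusted p = 2.89e-07), which was 2.34 on log2(FPKM + 0.1). Both control libraries were below the level for testing, so TGFA was tested only through the ZNF263 libraries and had to be higher there. EREG, epiregulin, was the most abundant ligand that was called, with 25.96 and 29.8 FPKM with ZNF263, against 44.7 and 49.01 FPKM with the control vector, and it fell by 0.73 ± 0.097 (adjusted p = 0.00021). AREG, amphiregulin, had 9.39 and 10.5 FPKM with ZNF263 and 11.7 and 12.5 FPKM with control, a change of -0.26 that was not called (limma adjusted p = 0.111). ADAM10 and ADAM17, the proteases that release ligands from the membrane, stood at 0.074 and 0.0024 and were not called. Of the 18 members tested, 3 rose, 4 fell and 11 did not pass, with 2 of the rises and 3 of the falls held, and the median change was 0.0095.

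**Figure D2:**
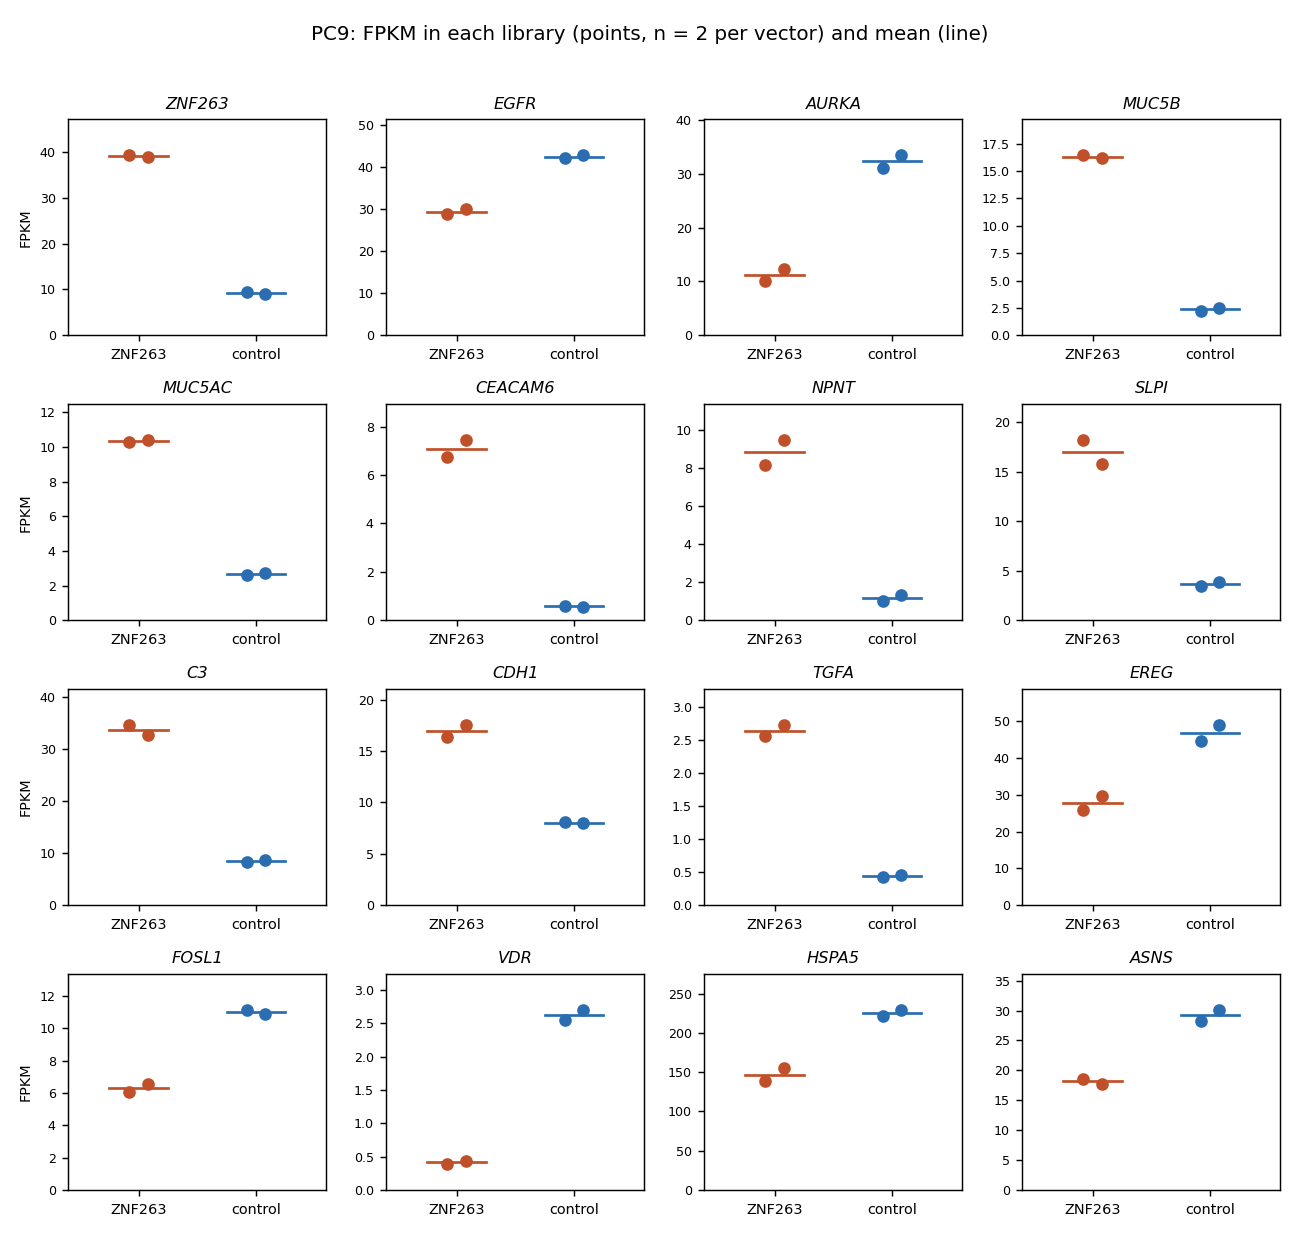
FPKM in each PC9 library for 16 genes, with points for the 2 ZNF263 libraries (orange, left) and the 2 control libraries (blue, right), a line at each mean, and a vertical axis from 0. In every panel the libraries of a vector lie closer to each other than to those of the other vector.

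Genes induced by ERK fell more often than they rose. Of 25 ERK target and feedback genes tested, 12 fell, 4 rose and 9 did not pass, against 5.03% lower and 8.18% higher over all genes. The median change was -0.25, against -0.0095 over all genes, and 4 falls and 1 rise held. In 1 member both control libraries were below 1 FPKM, so it could be tested only if higher with ZNF263. PHLDA1, an early response gene of receptor tyrosine kinase signalling, had 10.7 and 11.8 FPKM in the ZNF263 libraries, against 21.3 and 22.6 FPKM in the control libraries, and fell by 0.91 ± 0.063 (SE, limma adjusted p = 6.61e-07). FOSL1, the AP-1 subunit most tied to sustained ERK activity, had 6.05 and 6.57 FPKM with ZNF263, against 11.1 and 10.9 FPKM with the control vector, and fell by 0.72 ± 0.078 (adjusted p = 3.31e-05). HMGA2, an architectural chromatin protein, fell by 0.68, to a mean of 11.3 FPKM with ZNF263 against 18.7 FPKM with control. CCND1, cyclin D1, fell by 0.30, with 74.99 FPKM with ZNF263 and 92.7 FPKM with control.

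The feedback phosphatases and other AP-1 members did not move as a block. FOSL2, a further AP-1 subunit, rose by 0.56 ± 0.055 (SE, limma adjusted p = 1.39e-05), with 21.7 and 20.4 FPKM with ZNF263 and 13.98 and 13.8 FPKM with control. DUSP6, the cytoplasmic phosphatase of ERK, stood at -0.34 (adjusted p = 0.00827), a call lost without ZNF263 library 1 or control library 1 (adjusted p = 0.0905 and 0.0909). DUSP4, a nuclear phosphatase of ERK, stood at 0.28 in the other direction, and that call was lost without ZNF263 library 1, ZNF263 library 2, control library 1 or control library 2 (adjusted p = 0.0944, 0.143, 0.169 and 0.0976). FOS and JUNB, which ERK also induces, stood at -0.035 and -0.15 and were not called.

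Genes of airway secretory cells were among the largest rises. Goblet cells of the airway secrete the gel-forming mucins MUC5AC and MUC5B, while club and goblet cells release defence proteins such as SLPI and lipocalin. All 4 mucin genes tested and all 6 secretory and defence genes tested were called higher, against 8.18% of all genes tested, and all of these calls held. These counts carry little by themselves, since the lists hold 14 and 29 genes in all and most lay below the level for testing. In 1 of the mucin genes, MUC1, and 3 of the others, CEACAM6, LCN2 and TSPAN8, both control libraries were below 1 FPKM, so these were tested only through the ZNF263 libraries and had to be higher there. The lists were also chosen with earlier results of these data known.

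MUC5B, on chromosome 11, bases 1223066 to 1262172 (GRCh38, plus strand), had 16.4 and 16.2 FPKM in the ZNF263 libraries, against 2.21 and 2.50 FPKM in the control libraries, and MUC5AC, beside it on that chromosome, had 10.3 and 10.4 FPKM with ZNF263, against 2.60 and 2.70 FPKM with the control vector. Their log2 changes were 2.37 ± 0.086 and 1.64 ± 0.063 (SE, limma adjusted p = 1.7e-09 and 2.08e-09). MUC1, a mucin anchored in the cell membrane, rose by 0.71, to a mean of 1.66 FPKM with ZNF263 against 0.637 FPKM with control. MUC13, a membrane mucin of the gut and airway, rose by 0.46.

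CEACAM6, a surface glycoprotein of the carcinoembryonic antigen family, had 6.75 and 7.44 FPKM in the ZNF263 libraries, against 0.604 and 0.556 FPKM in the control libraries, and rose by 2.36 ± 0.094 (SE, limma adjusted p = 2.51e-09). The inhibitor of neutrophil elastase SLPI had 18.2 and 15.8 FPKM with ZNF263, against 3.49 and 3.88 FPKM with the control vector, a rise of 1.94 ± 0.094 (adjusted p = 2.46e-08). S100P, a secreted calcium-binding protein, rose by 1.79 and had 42.5 and 49.3 FPKM with ZNF263 and 13.3 and 11.7 FPKM with control. LCN2, lipocalin, which withholds iron from bacteria, rose by 1.62 and had 2.80 and 3.71 FPKM with ZNF263 and 0.541 and 0.228 FPKM with control. AGR2, the disulfide isomerase that folds mucins, was the most abundant member, at a mean of 123 FPKM with ZNF263 and 79.5 FPKM with control, and rose by 0.62. TSPAN8, a tetraspanin, rose by 0.75.

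Enzymes that build mucin sugars were divided. Of 15 tested, 4 rose and 3 fell, 3 of the rises held and 0 of the falls did, and the median change was -0.072. B3GNT3, which extends core chains, rose by 0.80 ± 0.078 (SE, limma adjusted p = 1.39e-05), with 9.94 and 8.93 FPKM with ZNF263 and 5.14 and 4.86 FPKM with control. ST6GAL1 and ST3GAL1, which cap chains with sialic acid, rose by 0.65 and 0.37. GCNT3, the branching enzyme of mucin-secreting tissue, was abundant, at 32.5 FPKM with ZNF263 and 28.9 FPKM with control, and stood at 0.16, not called.

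Transcription factors of the secretory lineage changed in both directions. Of 18 tested, 5 rose, 2 fell and 11 did not pass, with 2 rises and 1 fall held and a median of 0.18, and rises outnumbered falls over all genes too (8.18% against 5.03%). One of the rises is that of the basal marker TP63 given above. SPDEF, the ETS factor that drives goblet cell differentiation, had 3.28 and 2.67 FPKM in the ZNF263 libraries, against 1.06 and 1.10 FPKM in the control libraries, a rise of 0.93 ± 0.088 (SE, limma adjusted p = 1.08e-05). EHF, an epithelial ETS factor, had 16.96 and 17.4 FPKM with ZNF263, against 8.06 and 7.55 FPKM with the control vector, a rise of 1.05 ± 0.074 (adjusted p = 7.3e-07). FOXQ1, a forkhead factor, fell by 0.97 ± 0.073 (adjusted p = 1.24e-06), with 3.34 and 3.66 FPKM with ZNF263 and 7.88 and 7.74 FPKM with control. FOXA2, which restrains mucus production in the airway, stood at -0.13 and was not called, nor was SOX9 at 0.14.

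Of the ion and fluid transporters that hydrate airway mucus, 1 of 9 rose and 1 fell. SCNN1A, the alpha subunit of the epithelial sodium channel, had 59.6 and 54.8 FPKM in the ZNF263 libraries, against 30.5 and 30.4 FPKM in the control libraries, and rose by 0.89 ± 0.074 (SE, limma adjusted p = 3.74e-06). S100P was the 1 called gene among 9 S100 genes tested, and S100A6, the most abundant, stood at 0.011.

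NPNT gave the third-largest rise and lies outside these lists. It encodes nephronectin, a matrix ligand of integrins that carries EGF-like repeats, and lies on chromosome 4, bases 105894775 to 106004027 (GRCh38, plus strand). It had 8.20 and 9.48 FPKM in the ZNF263 libraries, against 1.01 and 1.32 FPKM in the control libraries, a change of 2.19 ± 0.082 (SE, limma adjusted p = 1.7e-09). Of the others among the 15 largest rises, LYPD1, a membrane-anchored LY6 family protein, rose by 1.71, and the annexin ANXA13 rose by 1.59. LGALS3BP and LGALS2, a ligand of a galectin and a galectin, rose by 1.48 and 1.45. LGALS2 had 2.50 and 2.01 FPKM with ZNF263 and 0.192 and 0.183 FPKM with control, on 1 read in each control library. It was tested only through the ZNF263 libraries and had to be higher there. LGALS3BP had 43.3 and 41.6 FPKM with ZNF263 and 14.6 and 14.6 FPKM with control, well above the level for testing in all 4 libraries.

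**Figure D3:**
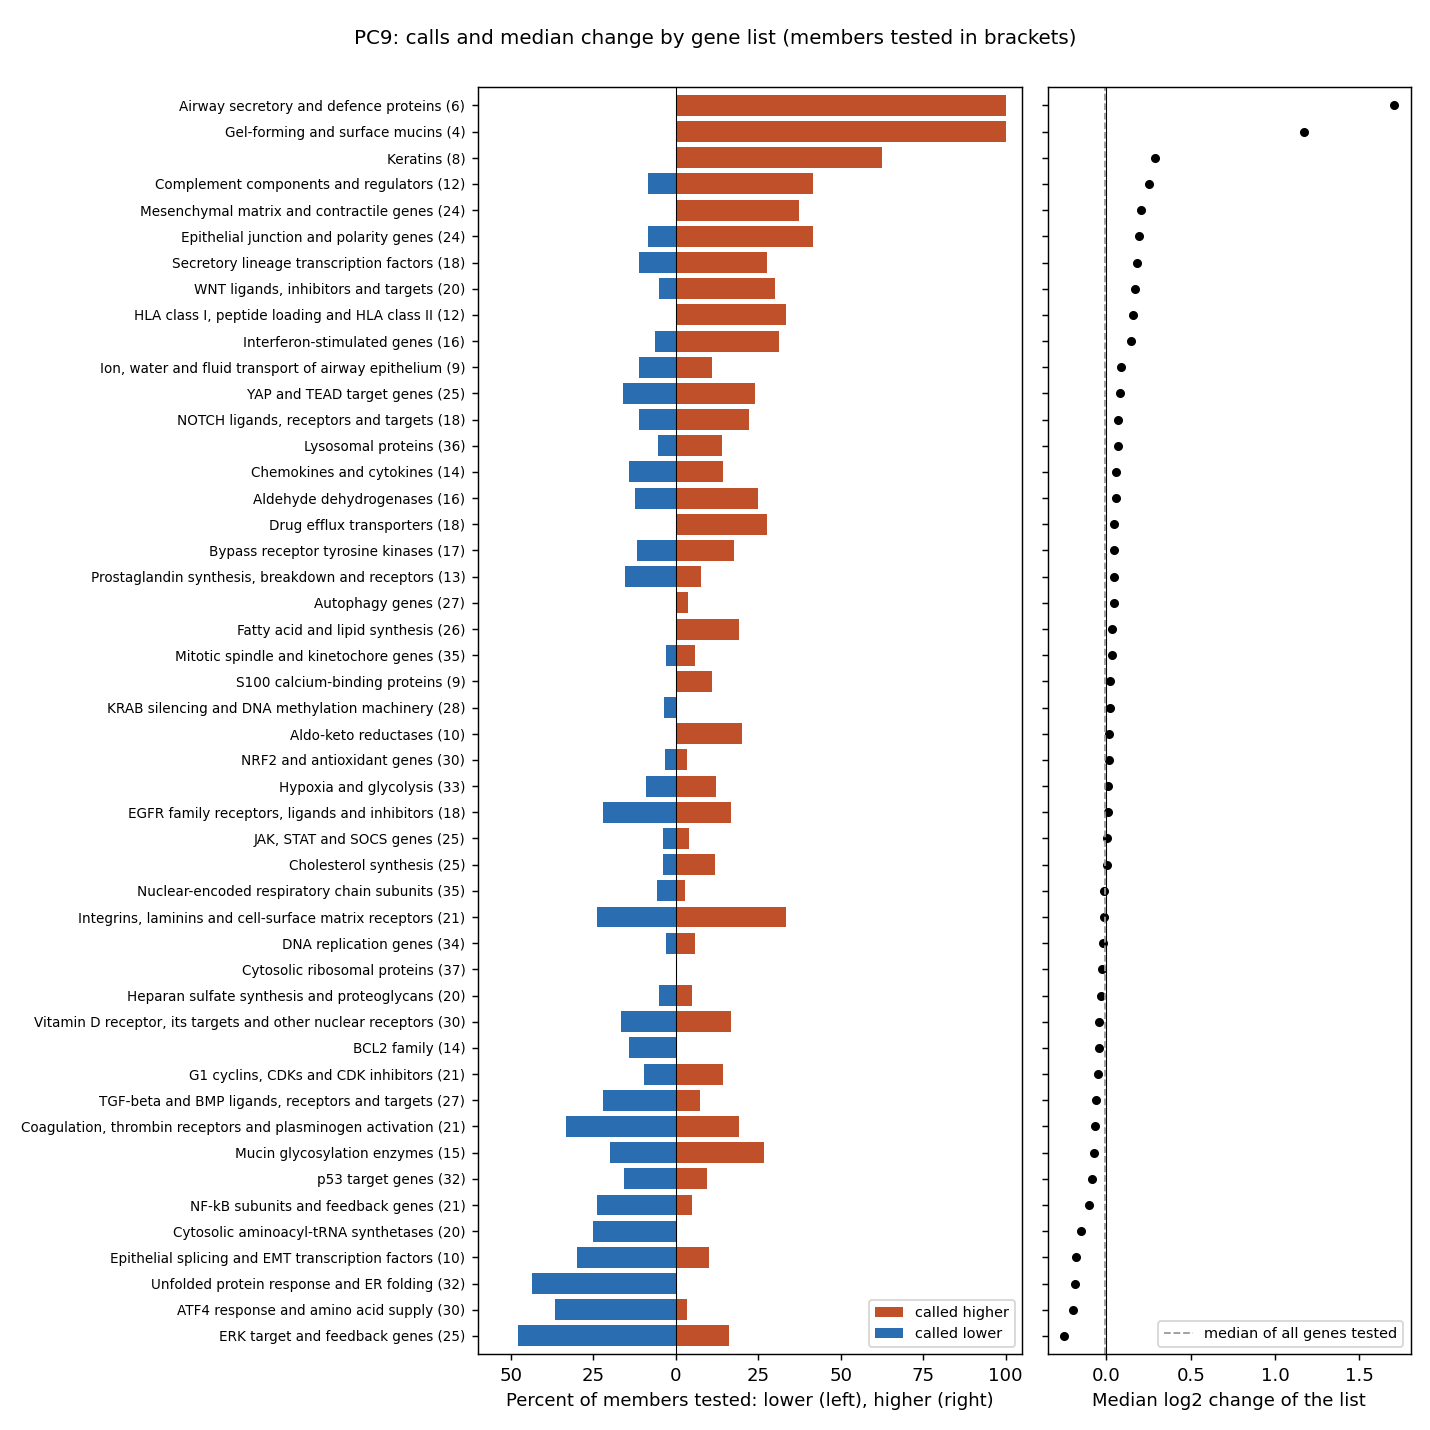
Percent of tested members called higher (orange, right of 0) or lower (blue, left of 0) with ZNF263 for each gene list, and the list's median log2 change (black points, ZNF263 minus control), with the number tested in brackets. Secretory and mucin lists stand at the top, but few of their members were tested and 4 of those 10 passed the filter through the ZNF263 libraries alone. The ERK targets, ATF4 genes and endoplasmic reticulum folding genes stand at the bottom with medians of -0.25, -0.20 and -0.18.

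Epithelial adhesion genes rose more often than they fell, although EPCAM stayed below 1 FPKM. Of 24 junction and polarity genes tested, 10 rose, 2 fell and 12 did not pass, against 8.18% higher and 5.03% lower over all genes. Of these calls 7 rises and 1 fall held, and the median was 0.19. In 2 members both control libraries were below 1 FPKM. These were tested only through the ZNF263 libraries and had to be higher there. CLDN2, the claudin that forms pores for cations, was abundant, with 149 and 151 FPKM in the ZNF263 libraries, against 54.6 and 56.4 FPKM in the control libraries, and rose by 1.42 ± 0.072 (SE, limma adjusted p = 3.62e-08). CLDN1, a sealing claudin, fell by 0.63 ± 0.06 (adjusted p = 1.08e-05), with 22.9 and 23.01 FPKM with ZNF263 and 34.5 and 37.6 FPKM with control. CDH1, E-cadherin of adherens junctions, had 16.3 and 17.5 FPKM with ZNF263, against 8.05 and 7.97 FPKM with the control vector, and rose by 0.99 ± 0.067 (adjusted p = 6.15e-07). DSP, desmoplakin of desmosomes, rose by 0.49, and TJP3, LLGL2 and CRB3, of tight junctions and cell polarity, rose by 0.80, 0.52 and 0.65.

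Keratins rose in 5 of 8 tested genes and fell in 0, against 8.18% higher and 5.03% lower over all genes, and 3 of those calls held. KRT18 and KRT8, partners in the filaments of simple epithelia, rose together, with 1942 and 1867 FPKM with ZNF263 and 1200.0 and 1233 FPKM with control for KRT18 and 1662 and 1555 FPKM with ZNF263 and 1049 and 1041 FPKM with control for KRT8. Their changes were 0.65 ± 0.067 and 0.62 ± 0.068 (SE, limma adjusted p = 2.36e-05 and 3.97e-05). KRT4, a keratin of non-keratinising mucosa, rose by 1.36, to a mean of 5.14 FPKM with ZNF263 against 1.38 FPKM with control. KRT7 stood at 0.044 and was not called.

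Mesenchymal genes did not move opposite to the epithelial ones. Of 24 matrix and contractile genes tested, 9 rose, 0 fell and 15 did not pass, against 8.18% higher and 5.03% lower over all genes. Of the rises 7 held. In 2 members both control libraries were below 1 FPKM, so these could be tested only if higher with ZNF263. FN1, fibronectin, had 199 and 204 FPKM in the ZNF263 libraries, against 127 and 122 FPKM in the control libraries, and rose by 0.69 ± 0.053 (SE, limma adjusted p = 1.61e-06). COL5A1 and COL6A1, fibrillar and microfibrillar collagen chains, rose by 0.58 and 0.59, and CDH2, N-cadherin, rose by 0.34, to 37.03 FPKM with ZNF263 against 28.99 FPKM with control. VIM, vimentin, was at 595 FPKM with ZNF263 and 586 FPKM with control and was not called.

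Transcription factors of epithelial to mesenchymal transition included falls of FOXC2 and FOXC1. FOXC2 had 0.131 and 0.473 FPKM in the ZNF263 libraries, against 2.29 and 2.41 FPKM in the control libraries, and fell by 1.38 ± 0.095 (SE, limma adjusted p = 6.61e-07), while FOXC1 fell by 0.36. On log2(FPKM + 0.1) the change of FOXC2 was -2.75. FOXC2 was below 1 FPKM in both ZNF263 libraries, so it was tested only through the control libraries and had to be lower with ZNF263. ZEB1, TWIST1 and SNAI2 stood at -0.23, -0.23 and -0.079 and were not called. The list gave 3 falls and 1 rise among 10 genes tested, with 2 falls held.

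Integrin and laminin genes changed in both directions, with 7 rises and 5 falls among 21 tested (5 and 1 held). Over all genes 8.18% rose and 5.03% fell. ITGB4, the beta chain of the hemidesmosome integrin, had 24.3 and 22.96 FPKM in the ZNF263 libraries, against 10.3 and 11.4 FPKM in the control libraries, and rose by 1.06 ± 0.077 (SE, limma adjusted p = 9.18e-07). CD9, a tetraspanin partner of integrins, and CD44, the hyaluronan receptor, rose by 0.84 and 0.58, and CD44 had 72.7 and 76.4 FPKM with ZNF263 and 48.2 and 50.9 FPKM with control. LAMB3 rose by 0.45 and LAMA3 fell by 0.71, although both are chains of the same laminin of epithelial basement membranes.

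Complement genes gave 5 rises and 1 fall among 12 tested (4 and 1 held), and 6 did not pass. Over all genes 8.18% rose and 5.03% fell. In 1 member both control libraries were below 1 FPKM, so it could be tested only if higher with ZNF263. C3, the central component, had 34.7 and 32.7 FPKM in the ZNF263 libraries, against 8.19 and 8.65 FPKM in the control libraries, a rise of 1.88 ± 0.069 (SE, limma adjusted p = 1.7e-09). C1R, a protease of the classical pathway, and its relative C1RL rose by 0.66 and 0.45, and CFI, the protease that inactivates C3b, rose by 0.77. CD55, which protects host cells from complement, fell by 0.44 ± 0.059 (adjusted p = 0.000232), with 10.98 and 11.1 FPKM with ZNF263 and 15.6 and 14.97 FPKM with control. The median change of the list was 0.26.

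Interferon-stimulated genes gave 5 rises and 1 fall among 16 tested, of which 3 rises held, against 8.18% higher and 5.03% lower over all genes. In 2 members both control libraries were below 1 FPKM, so these could be tested only if higher with ZNF263. IFITM2 and IFITM3, membrane proteins that block viral entry and are near-identical in sequence so that reads may be divided between them uncertainly, rose by 1.33 and 0.86. IFI35 rose by 0.74 and had 4.91 and 5.54 FPKM with ZNF263 and 2.63 and 2.83 FPKM with control. Among 12 HLA and peptide-loading genes 4 were called, all higher, but 0 of these calls held.

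Genes that serve protein folding in the endoplasmic reticulum gave falls and no rise, although most of them were not called. When unfolded proteins accumulate, ATF6, IRE1 and PERK induce chaperones such as BiP, encoded by HSPA5. Of 32 genes tested, 14 fell, 0 rose and 18 did not pass, against 5.03% lower and 8.18% higher over all genes. Of the falls 8 held, and 28 of the 32 changes were negative, with a median of -0.18. HSPA5 had 139 and 155 FPKM in the ZNF263 libraries, against 222 and 229 FPKM in the control libraries, and fell by 0.62 ± 0.055 (SE, limma adjusted p = 5.98e-06). MANF, a secreted factor that binds BiP, fell by 0.57 ± 0.094 (adjusted p = 0.00119), with 45.6 and 45.8 FPKM with ZNF263 and 65.4 and 71.1 FPKM with control. SDF2L1 and DNAJB11, co-factors of BiP, fell by 0.53 and fell by 0.46, and HERPUD1, which serves degradation of misfolded proteins, fell by 0.52. HYOU1 and PDIA4, a chaperone and a disulfide isomerase, fell by 0.39 and fell by 0.28.

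The sensors and several abundant chaperones were not called. ATF6 and XBP1 stood at -0.06 and -0.10. CALR, calreticulin, and HSP90B1 stood at -0.12 and -0.25, the second with an adjusted p of 0.0532. P4HB, a disulfide isomerase at 332 FPKM with ZNF263 and 319 FPKM with control, stood at 0.059.

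**Figure D4:**
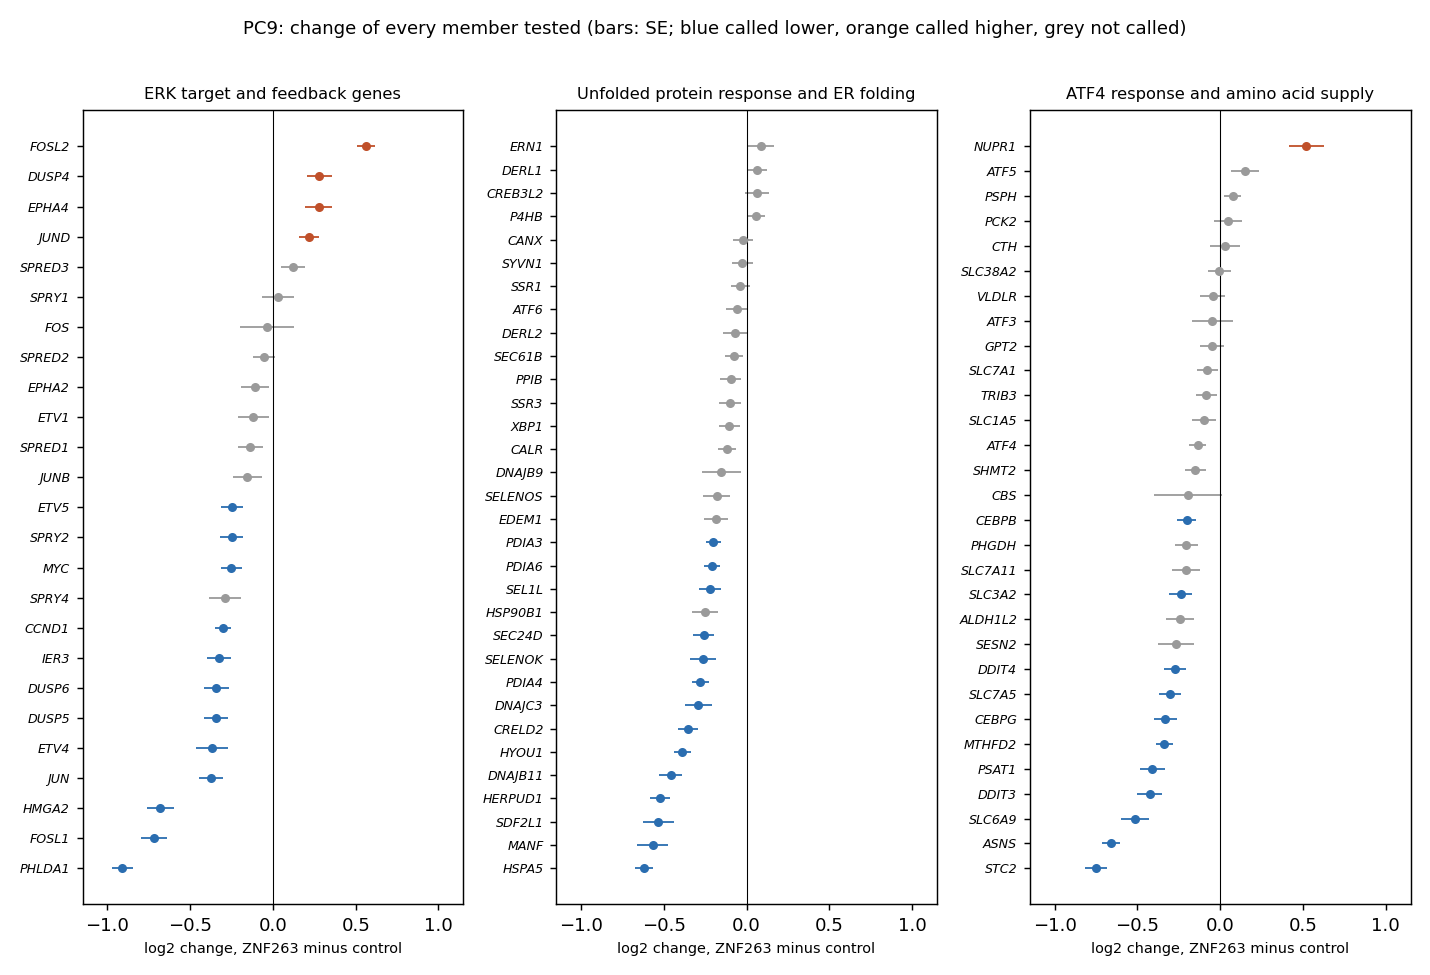
Change of every tested member of 3 gene lists (horizontal, log2(FPKM + 1) scale, ZNF263 minus control, with SE bars), with called falls in blue, called rises in orange and other members in grey. Called falls outnumber called rises in each list, led by PHLDA1 at -0.91, HSPA5 at -0.62 and STC2 at -0.75, and the rises include FOSL2 at 0.56.

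Genes under ATF4, which raises amino acid synthesis and uptake under stress, gave more falls than rises. Of 30 tested, 11 fell, 1 rose and 18 did not pass, against 5.03% lower and 8.18% higher over all genes. The median was -0.20, and 5 falls and 0 rises held. ASNS, asparagine synthetase, had 18.6 and 17.7 FPKM in the ZNF263 libraries, against 28.3 and 30.1 FPKM in the control libraries, and fell by 0.66 ± 0.055 (SE, limma adjusted p = 3.62e-06). STC2, a secreted glycoprotein, fell by 0.75 ± 0.068 (adjusted p = 7.67e-06), with 6.07 and 5.78 FPKM with ZNF263 and 10.1 and 11.3 FPKM with control. DDIT3, the factor CHOP, fell by 0.43, and MTHFD2, of mitochondrial folate metabolism, fell by 0.34. The glycine transporter SLC6A9 fell by 0.51, to 1.08 FPKM with ZNF263 against 1.98 FPKM with control. ATF4 itself stood at -0.14 and was not called.

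The cytosolic aminoacyl-tRNA synthetases, many of them ATF4 targets, gave 5 falls and 0 rises among 20 tested, with a median of -0.15, but 0 of these calls held. Values for 2 of these genes were found in HCC827, so most were fitted on the 4 PC9 libraries.

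Among 21 NF-kB subunits and feedback genes, 5 fell and 1 rose, against 5.03% lower and 8.18% higher over all genes. In 1 member both ZNF263 libraries were below 1 FPKM, so it could be tested only if lower with ZNF263. The 2 falls that held were those of NFKB2 and RELB. NFKB2, the precursor of p52, had 3.94 and 3.41 FPKM in the ZNF263 libraries, against 6.12 and 7.22 FPKM in the control libraries, and fell by 0.71 ± 0.079 (SE, limma adjusted p = 4.44e-05), and its partner RELB had 2.31 and 2.87 FPKM with ZNF263, against 4.41 and 4.53 FPKM with the control vector, and fell by 0.61 ± 0.078 (adjusted p = 0.000157). Of the canonical arm, NFKB1, the precursor of p50, and NFKBIA, an inhibitor that NF-kB induces, fell by 0.21 and fell by 0.23, and RELA stood at -0.038 and was not called. TNFAIP3, the deubiquitinase A20 that restrains the pathway, fell by 0.35, and NFKBIZ, a nuclear relative of the inhibitors, rose by 0.31. The calls of these 4 were each lost without at least 1 library, and those of NFKB1 and NFKBIZ also with the replicate block (adjusted p = 0.0521 and 0.061).

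The neutrophil chemokines CXCL1 and CXCL8, which act on the same receptor, moved oppositely. CXCL1 had 31.9 and 34.5 FPKM in the ZNF263 libraries, against 11.5 and 11.5 FPKM in the control libraries, a rise of 1.45 ± 0.09 (SE, limma adjusted p = 2.89e-07). CXCL8 had 1.51 and 1.63 FPKM with ZNF263, against 4.38 and 3.11 FPKM with the control vector, a fall by 0.87 ± 0.150 (adjusted p = 0.00158). The closest relatives of CXCL1, CXCL2 and CXCL3, stood at 0.26 and 0.40 and were not called. LIF, an IL6 family cytokine, fell by 0.35, and IL11, of the same family, rose by 0.43. PTGS2, the inducible cyclooxygenase, fell by 0.57 ± 0.096 (adjusted p = 0.0014), with 2.07 and 1.82 FPKM with ZNF263 and 3.39 and 3.32 FPKM with control, and of 13 prostaglandin genes tested 1 rose and 2 fell.

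VDR, the vitamin D receptor, was among the largest falls. It lies on chromosome 12, bases 47841537 to 47943048 (GRCh38, minus strand), had 0.394 and 0.432 FPKM in the ZNF263 libraries, against 2.54 and 2.70 FPKM in the control libraries, and fell by 1.36 ± 0.068 (SE, limma adjusted p = 3.58e-08). On log2(FPKM + 0.1) the change was -2.41. Both ZNF263 libraries were below the level for testing, so VDR was tested only through the control libraries and had to be lower with ZNF263. CYP24A1, the vitamin D hydroxylase that the receptor induces, was very abundant, with 476 and 475 FPKM with ZNF263 and 529 and 520.4 FPKM with control, and its change of -0.14 was not called (adjusted p = 0.318). Other nuclear receptors changed both ways, with 5 rises and 5 falls among 30 genes of this list (2 and 3 held). In 1 member both control libraries were below 1 FPKM, and in 2 members, VDR among them, both ZNF263 libraries were. NR1H4, the bile acid receptor, and NR3C2, the mineralocorticoid receptor, rose by 0.62 and 0.50. RARB and NR5A2 fell by 0.37 and fell by 0.43, and RARB was not called on log2(FPKM + 0.1) (adjusted p = 0.245).

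Receptors cleaved by thrombin and trypsin-like proteases fell together. F2R, the thrombin receptor PAR1, had 7.60 and 8.92 FPKM in the ZNF263 libraries, against 16.4 and 15.4 FPKM in the control libraries, and fell by 0.87 ± 0.099 (SE, limma adjusted p = 5.56e-05). F2RL1, the receptor PAR2, had 23.4 and 25.5 FPKM with ZNF263, against 41.7 and 43.1 FPKM with the control vector, and F2RL2, the receptor PAR3, had 2.29 and 2.21 FPKM with ZNF263 and 4.41 and 4.70 FPKM with control. They fell by 0.77 and fell by 0.77 (limma adjusted p = 1.61e-06 and 8.24e-06). The fibrinogen chains FGB and FGG rose by 0.61 and 0.42 (FGG not on log2(FPKM + 0.1), adjusted p = 0.226), while FGA, the third chain, stood at 0.011 and was not called. PLAU, urokinase, rose by 0.41, and its receptor PLAUR stood at -0.36, a call lost without ZNF263 library 1 or control library 1 (adjusted p = 0.083 and 0.115). Over the coagulation and plasminogen list, 4 rose and 7 fell among 21 tested (3 and 3 held). In 1 member both control libraries were below 1 FPKM, and in 1 member both ZNF263 libraries were. Each of these had to be higher with the other vector.

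In the WNT, BMP and NOTCH pathways, which carry signals between neighbouring cells, single genes changed in both directions. DKK1, a secreted WNT inhibitor, had 49.4 and 52.1 FPKM in the ZNF263 libraries, against 77.01 and 76.5 FPKM in the control libraries, and fell by 0.59 ± 0.081 (SE, limma adjusted p = 0.00029), while LGR4 and WNT5A rose by 0.34 and 0.35. Among 20 WNT genes tested, 6 rose and 1 fell (2 and 1 held). BMP4 rose by 0.66 ± 0.066 (adjusted p = 1.63e-05), with 13.4 and 14.7 FPKM with ZNF263 and 8.25 and 8.82 FPKM with control, and 6 of 27 TGF-beta and BMP genes fell and 2 rose (0 and 1 held). NOTCH1 and its ligand JAG2 rose by 0.44 and 0.53, and 4 of 18 NOTCH genes rose and 2 fell (3 and 0 held). Among 25 YAP and TEAD targets, 6 rose and 4 fell, with 1 and 0 held, and AMOTL2 rose by 0.39. In 1 member of the WNT list both control libraries were below 1 FPKM. In 1 member each of the TGF-beta and BMP list and the YAP list both ZNF263 libraries were. These could be tested only if higher with the other vector.

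Receptor tyrosine kinases that can bypass EGFR gave 3 rises and 2 falls among 17 tested (2 and 1 held). TYRO3, of the AXL family, rose by 0.49 ± 0.088 (SE, limma adjusted p = 0.00222), with 5.81 and 5.41 FPKM with ZNF263 and 4.01 and 3.43 FPKM with control. DDR1, a collagen receptor, rose by 0.42. AXL, often linked to osimertinib tolerance, was at 70.98 FPKM with ZNF263 and 63.4 FPKM with control, a change of 0.16 that was not called (adjusted p = 0.158). MET stood at -0.33 (adjusted p = 0.0123), a call lost without ZNF263 library 1, control library 1 or control library 2 (adjusted p = 0.138, 0.0642 and 0.0976). The growth factor IGF2 fell by 0.78, to 0.597 FPKM with ZNF263 against 1.75 FPKM with control. In 1 member of this list both ZNF263 libraries were below 1 FPKM, and in 1 member both control libraries were. Each of these had to be higher with the other vector.

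AURKA, the mitotic kinase Aurora A, lies on chromosome 20, bases 56369389 to 56392337 (GRCh38, minus strand) and had 10.02 and 12.2 FPKM in the ZNF263 libraries, against 31.1 and 33.4 FPKM in the control libraries. It fell by 1.46 ± 0.093 (SE, limma adjusted p = 3.28e-07). It was the 1 tested gene whose 4 FPKM values could not be expressed as whole numbers of reads, and how its values were made was not tested. The other genes of mitosis gave few calls: among 35 spindle and kinetochore genes tested, AURKA was the 1 called lower, 2 were called higher and 0 of these held. TPX2, the activator of AURKA, stood at 0.04, and PLK1, which Aurora A activates, at 0.17. DNA replication genes gave 2 rises and 1 fall among 34, none of which held.

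Among cyclins and inhibitors of the G1 phase, 3 of 21 rose and 2 fell, and 1 rise and 1 fall held. CDKN2C, the inhibitor p18 of CDK4 and CDK6, had 19.96 and 19.1 FPKM in the ZNF263 libraries, against 11.6 and 10.9 FPKM in the control libraries, and rose by 0.74 ± 0.075 (SE, limma adjusted p = 1.68e-05), and the fall that held is that of CCND1. Among 14 BCL2 family genes, 2 fell and 0 rose, and both falls held. The share called was 14.3%, close to the 13.2% of all genes. BCL2A1, an inhibitor of apoptosis induced by NF-kB, had 0.175 and 0.394 FPKM with ZNF263, against 2.05 and 2.30 FPKM with the control vector, and fell by 1.31 ± 0.136 (adjusted p = 2.23e-05), or by more with log2(FPKM + 0.1), at -2.62. BCL2A1 was below 1 FPKM in both ZNF263 libraries, so it was tested only through the control libraries and had to be lower with ZNF263. MCL1, an inhibitor of apoptosis with a short life, fell by 0.28 ± 0.049 (adjusted p = 0.00186), with 41.5 and 43.8 FPKM with ZNF263 and 51.3 and 52.7 FPKM with control. BCL2L1 and BAX stood at 0.045 and -0.22, and BCL2L11, the proapoptotic protein BIM, at 0.14, none of them called. Of 32 p53 targets, 3 rose and 5 fell, and 1 rise and 0 falls held.

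Metabolic lists gave calls in 21.2% of hypoxia and glycolysis genes, 19.2% of fatty acid and lipid genes and 16% of cholesterol genes, against 13.2% of all genes. Among 33 hypoxia and glycolysis genes, 4 rose and 3 fell, with 3 rises held, and those held were CA9, an extracellular carbonic anhydrase, SLC16A3, the lactate exporter MCT4, and EGLN3, a prolyl hydroxylase. SLC16A3 had 64.5 and 63.1 FPKM in the ZNF263 libraries, against 34.7 and 35.2 FPKM in the control libraries, and rose by 0.85 ± 0.077 (SE, limma adjusted p = 7.67e-06), and CA9 and EGLN3 rose by 0.93 and 0.48. The glycolytic enzymes GAPDH, PKM and LDHA stood at 0.037, -0.12 and -0.075 and were not called. In the cholesterol list, 3 rose and 1 fell among 25 cholesterol genes (1 rise held). Of 26 fatty acid and lipid genes 5 rose and 0 fell (2 held), and SCD and FASN stood at 0.025 and -0.0076.

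Some genes of detoxification were very abundant in both groups without being called. ALDH1A1, which oxidises retinal, was at 2228 FPKM with ZNF263 and 1912 FPKM with control, a change of 0.22 that was not called (adjusted p = 0.155). AKR1B10, an aldo-keto reductase under NRF2, was at 2095 FPKM with ZNF263 and 1845 FPKM with control and was not called, nor was NQO1 at -0.043. Of 30 NRF2 and antioxidant genes 1 rose and 1 fell, and neither call held. Of 16 aldehyde dehydrogenases 4 rose and 2 fell, or 37.5% against 13.2% of all genes called, with 1 rise and 1 fall held. ALDH1A3 fell by 0.51 ± 0.079 (adjusted p = 0.000669), with 3.14 and 2.62 FPKM with ZNF263 and 4.23 and 4.83 FPKM with control, and ALDH3B1 rose by 0.34. Of 18 drug efflux transporters 5 rose and 0 fell (27.8%), and the 2 that held were ABCC3 at 0.39 and ABCA12 at 0.44.

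Further lists held scattered calls. Lysosomal genes gave 5 rises and 2 falls among 36, none of which held, and autophagy genes gave 1 rise among 27, that of GABARAP at 0.43. JAK, STAT and SOCS genes gave 1 rise and 1 fall among 25. Heparan sulfate and proteoglycan genes gave 1 rise and 1 fall among 20, SDC1 at 0.27 and SDC4 at -0.57, and both held. Among 28 genes of KRAB silencing and DNA methylation 1 fell and 0 rose, and TRIM28, the co-repressor of KRAB domains, stood at 0.02. Respiratory chain subunits gave 1 rise and 2 falls among 35, and 0 of 37 ribosomal protein genes rose and 0 fell by limma (0 higher and 2 lower at an unadjusted p under 0.05, and 0 called with PC9 fitted alone), with a median of -0.026.

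The PC9 changes were then set beside those of HCC827 and H1975, with ZNF263 compared with control within each line and the lines sharing no libraries. The change differed between PC9 and HCC827 in 961 of 10623 genes (9.05%) and between PC9 and H1975 in 5632 of 10616 (53.1%), at a limma adjusted p under 0.05 for the difference itself. Of the 1384 genes called in PC9 with values in both lines, 386 differed from both, though the called PC9 change is itself a term of each difference. ZNF263 itself rose by 0.62 in HCC827 and 1.89 in H1975, against 1.96 in PC9 (PC9 minus HCC827 1.34, adjusted p = 1.45e-06), and the part of this smaller rise in the differences from HCC827 was not tested. Of 897 genes that rose in PC9, 251 fell in H1975, and of 551 that fell in PC9, 133 rose in H1975. Calls in the same direction and the share of all genes called in H1975 are not given here. These counts therefore do not tell whether opposite changes were more common than among genes in general.

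The changes of MUC5B and SLPI in PC9 lay above those in the other lines, but both were named for large PC9 rises, which are a term of these differences. Rises were not confined to PC9. Of 4 mucin genes, 3 were called higher and 0 lower in HCC827, and 0 higher and 1 lower in H1975. Of 6 secretory and defence genes, 4 were called higher and 1 lower in HCC827, and 1 higher and 4 lower in H1975. The share of all genes called in those lines is not given here. The change of MUC5B was 1.71 above that in HCC827 and 2.36 above that in H1975 (limma adjusted p = 3.57e-06 and 5.55e-09), and that of SLPI was 2.25 and 2.30 above (adjusted p = 4.68e-07 and 1.58e-08). MUC5B had at most 1.12 FPKM in any library of the other lines, and at such levels the log2 scale understates a change. It also rose in HCC827, by 0.66 (adjusted p = 0.000243). SLPI was present in both other lines and was called lower in each, at -0.32 in HCC827 and -0.36 in H1975 (adjusted p = 0.0349 and 0.00396). C3 changed by -0.23 in HCC827 and 3.22 in H1975, and thus rose by less in PC9 than in H1975 (difference -1.34, adjusted p = 1.46e-07). KRT18 differed from both lines (differences 0.68 and 0.87, adjusted p = 0.000614 and 6.01e-06).

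Epithelial junction genes had a positive median in PC9 and a negative one in H1975. Their median change was 0.19 in PC9, 0.059 in HCC827 and -1.20 in H1975. By the test of the difference, the PC9 change was above that of H1975 in 23 of 24 genes and above that of HCC827 in 7 of 24. Over all genes the change differed from H1975 in 53.1% and from HCC827 in 9.05%, in either direction. CDH1 changed by 0.99 in PC9, 0.058 in HCC827 and -2.23 in H1975. Interferon-stimulated genes had medians of 0.15, -0.016 and -0.85 in that order of lines, and 14 of 16 were above H1975.

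Folding genes of the endoplasmic reticulum had a lower median change in PC9 than in the other lines. It was -0.18 in PC9, 0.0012 in HCC827 and 0.19 in H1975. By the test of the difference, the PC9 change was below that of HCC827 in 14 of 32 genes and above it in 0. It was below that of H1975 in 21 of 32 and above it in 2. Over all genes the change differed from HCC827 in 9.05% and from H1975 in 53.1%, in either direction. HSPA5 changed by -0.62, -0.27 and 0.61 in the 3 lines (PC9 minus HCC827 -0.35, limma adjusted p = 0.0123, and PC9 minus H1975 -1.22, adjusted p = 3.73e-08). ATF4 genes went the other way against HCC827, with medians at -0.20 for PC9, -0.49 for HCC827 and 0.17 for H1975, and the PC9 change was above that of HCC827 in 13 of 30 genes and below it in 0. Hypoxia and glycolysis genes likewise had median changes: 0.0099 for PC9, -0.32 for HCC827 and -0.033 for H1975, with 14 of 33 above HCC827.

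ERK target genes had negative medians in all 3 lines. Their medians were -0.25 for PC9, -0.21 for HCC827 and -0.34 for H1975, and FOSL1 changed by -0.72, -0.57 and -1.54. Of the 25 genes, 3 were called higher and 12 lower in HCC827, and 10 higher and 14 lower in H1975. As for the other lists, neither the median over all genes nor the share of all genes called is given for HCC827 or H1975. PHLDA1 changed by -0.91 in PC9, 0.082 in HCC827 and -1.65 in H1975 (PC9 minus HCC827 -0.99, limma adjusted p = 1.94e-05). The change of EGFR in PC9 did not differ from that in HCC827 by the test (difference -0.20, adjusted p = 0.0974) and was smaller in size than in H1975 (difference 0.49, adjusted p = 6.15e-05). TGFA and ERBB3 changed by 0.10 and 0.58 in HCC827 and -2.37 and -1.97 in H1975, and the PC9 change of ERBB3 was below that in HCC827 (difference -1.28, adjusted p = 1.94e-05).

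**Figure D5:**
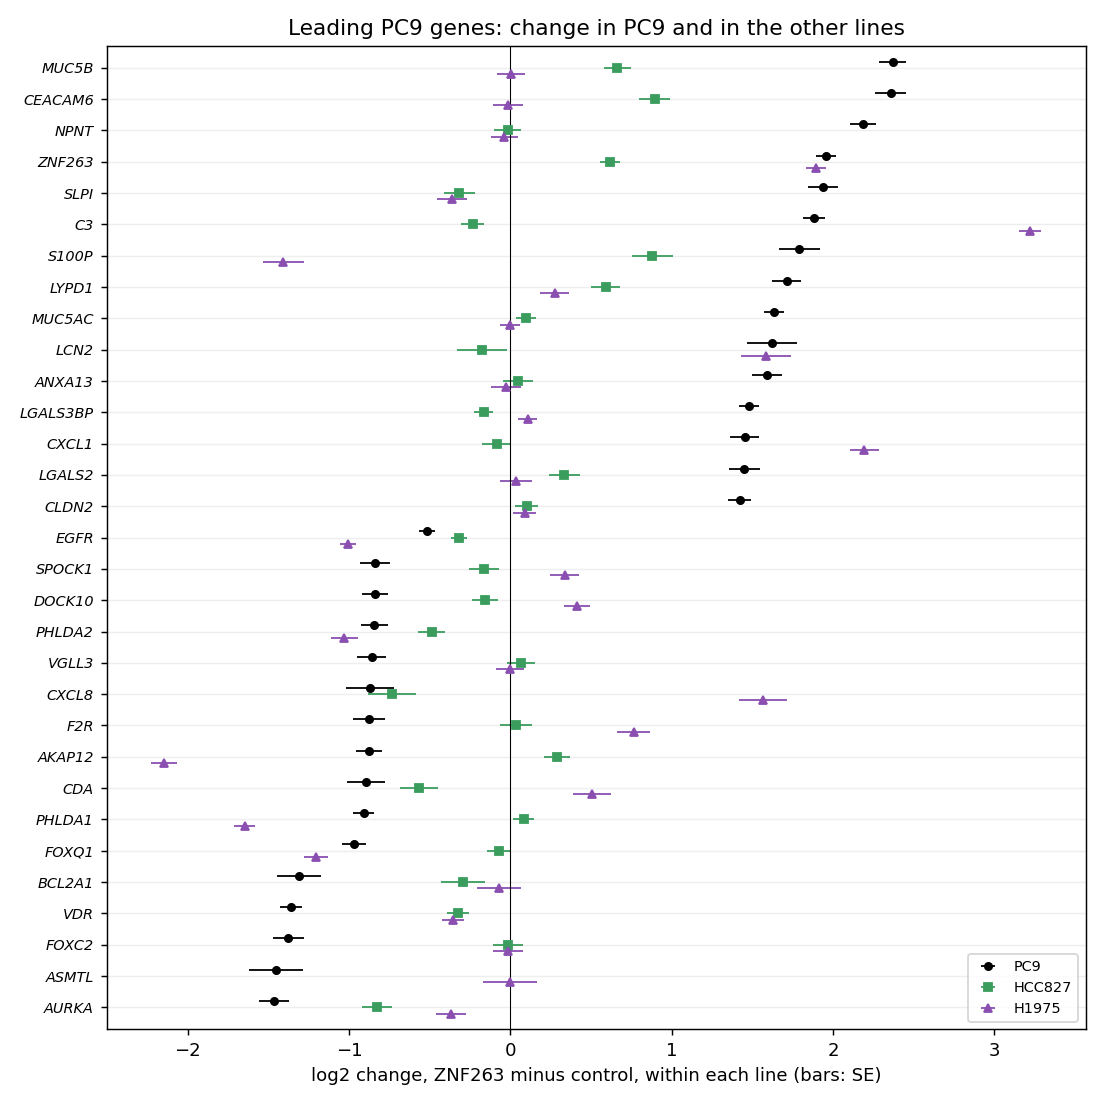
Change with ZNF263 within PC9 (black), HCC827 (green) and H1975 (purple) for ZNF263, EGFR, AURKA and the largest PC9 rises and falls (horizontal, log2(FPKM + 1) scale, ZNF263 minus control, with SE bars). Of the large PC9 rises, NPNT, MUC5AC, ANXA13, LGALS3BP and CLDN2 were called in neither HCC827 nor H1975, while MUC5B, CEACAM6, S100P, LYPD1 and LGALS2 also rose in HCC827 and C3, CXCL1, LCN2 and LYPD1 in H1975. LGALS2 lay below 1 FPKM in every HCC827 library and LYPD1 in every H1975 library. NPNT, MUC5AC, ANXA13 and CLDN2 lay below 1 FPKM in every library of both other lines, so the absence of a call there says little about them.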

How the data were processed

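Per the labels' protocols, TRIZOL served for RNA extraction and a SMARTER mRNA-seq kit for the libraries. The authors deposited FPKM values, 1 column per library, on GRCh38.p13 per the submitters' processing notes. Neither the aligner nor the counting tool, annotation or strandedness is given in the sources used here, so reads of overlapping antisense genes could not be told apart. From the deposited FPKM values, 27 entries with calendar-date names were left out, and genes reaching 1 FPKM in 2 PC9 libraries, or in more, were kept. Library totals were not given. Read numbers were recovered as the smallest whole numbers in proportion to a gene's 4 values (up to 20000 reads, then up to 300000), which succeeded for 99.3% of tested genes at the first pass (99.25) and for all but 1 gene, AURKA, after the second. They gave 17344393 and 17956962 reads in the ZNF263 libraries and 18780969 and 19770409 in the control libraries.

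Changes on log2(FPKM + 1) were tested two-sided by the moderated statistics of limma 3.58.1 (R 4.3.3, prior variance following the mean level) with 1 mean for each of the 6 groups of line and vector, so that HCC827 and H1975 add to the estimate of spread. The 317 tested genes with values in PC9 only were fitted on PC9 alone, and 42 of them were called. Benjamini-Hochberg adjustment ran over all genes tested. The code was tested on simulated data. Genes were named by a rule: ZNF263, EGFR, AURKA, the 15 largest rises and falls among called genes, the called members of each gene list by size of change, and other list members with their values. The members and lists were chosen with earlier results of these data known. Alternatives were another pseudocount, other filters and scalings, PC9 alone, H1975 left out, a replicate block and leaving out each PC9 library. Coordinates are from GENCODE v29 (GRCh38). Some results are not reported here.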

Additional observations from a re-analysis of the deposited data

Results flagged for a closer look

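Among ZNF263, EGFR, AURKA and the leading rises and falls in PC9, 30 genes were picked out because their change with ZNF263 differed between PC9 and another line by limma's test of the difference (adjusted p under 0.05, over all genes tested). The leading genes were chosen for a large PC9 change, which is a term of the difference, so a difference was likely in advance. Over all genes the change differed from HCC827 in 9.05% and from H1975 in 53.1%. Each value below is the PC9 log2 change minus that of the other line. Above HCC827 and above H1975, in that order of lines, the differences were 1.71 and 2.36 for MUC5B, 1.46 and 2.37 for CEACAM6, 2.20 and 2.22 for NPNT, 2.25 and 2.30 for SLPI and 0.91 and 3.20 for S100P. Further differences of this kind were 1.12 and 1.44 for LYPD1, 1.54 and 1.64 for MUC5AC, 1.54 and 1.62 for ANXA13, 1.64 and 1.37 for LGALS3BP and 1.12 and 1.42 for LGALS2. Others were 1.32 and 1.33 for CLDN2. Below both lines, again HCC827 before H1975, they were -0.64 and -1.10 for AURKA, -1.36 and -1.36 for FOXC2, -1.03 and -1.0 for VDR, -1.01 and -1.24 for BCL2A1 and -0.91 and -1.64 for F2R. The remaining such differences were -0.93 and -0.86 for VGLL3, -0.69 and -1.26 for DOCK10 and -0.68 and -1.18 for SPOCK1. On opposite sides of HCC827 and H1975 lay 2.11 and -1.34 for C3, 1.54 and -0.74 for CXCL1, -0.99 and 0.74 for PHLDA1 and -1.17 and 1.27 for AKAP12. Against HCC827 alone the test was passed by ZNF263 at 1.34, LCN2 at 1.80 and FOXQ1 at -0.90, and against H1975 alone by EGFR at 0.49, ASMTL at -1.45, CDA at -1.40 and CXCL8 at -2.44. Some of these genes lay below 1 FPKM in every library of the other line, so that their difference is close to the PC9 change itself. In HCC827 they were NPNT, MUC5AC, ANXA13, LGALS2, CLDN2, FOXC2 and FOXQ1, and in H1975 MUC5B, CEACAM6, NPNT, LYPD1, MUC5AC, ANXA13, LGALS2, CLDN2, ASMTL, FOXC2, BCL2A1 and VGLL3. ASMTL had no value in HCC827 and was listed at 0 in the H1975 libraries. In PC9, CEACAM6, LCN2 and LGALS2 were below 1 FPKM in both control libraries and had to be higher with ZNF263. FOXC2, VDR, BCL2A1 and ASMTL were below 1 FPKM in both PC9 ZNF263 libraries and had to be lower with ZNF263. The AURKA differences rest on PC9 values that could not be expressed as whole reads.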

How the results depend on the processing

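The number of genes called, 1448, lay between 1151 and 1921 under the alternatives that kept all 4 PC9 libraries, and between 630 and 941 when 1 PC9 library was left out, where an arm of 1 library is assumed to vary like the other groups. The 45 changes of at least 1 on the log2 scale numbered 108 with log2(FPKM + 0.1), where low genes weigh more, and between 43 and 50 without 1 library. The genes whose change differed from HCC827, 961, numbered between 526 and 758 without 1 library, and those that differed from H1975, 5632, between 4851 and 5015. The labels number the libraries of each vector 1 and 2. The within-vector differences of same-numbered libraries correlated at 0.040 across 10965 genes. Such a value cannot tell whether same-numbered libraries were handled together, since a shared batch may add little beside other spread. With the number as a replicate block, 1501 genes were called. The share of calls that were higher with ZNF263 was 62.0% (61.95), and lay between 56.2% and 70.1% over all alternatives. The direction of the genes named in the text held under each alternative except for genes that were not called and lay near 0. With quantile normalization RPS2 stood at -0.085, CD68 at -0.030, GAPDH at -0.033 and LDHA at 0.0065, and with median-of-ratios scaling ADAM17 at -0.0013. Without 1 PC9 library the change lay between -0.034 and 0.062 for RPS2, -0.052 and 0.057 for ADAM17, -0.030 and 0.015 for FASN, -0.16 and 0.18 for FGA, -0.13 and 0.060 for FOS, -0.0074 and 0.081 for GAPDH, -0.15 and 0.0066 for HSF1, -0.025 and 0.11 for KRT7, -0.094 and 0.019 for RELA, -0.034 and 0.055 for S100A6, -0.012 and 0.061 for SCD, -0.16 and 0.00064 for SNAI2, -0.00073 and 0.040 for TRIM28, and -0.0073 and 0.051 for VIM. For these the cause was not tested. With log2(FPKM + 0.1) the calls of RARB, FGG, DEFB1 and DUSP4 were lost (adjusted p = 0.245, 0.226, 0.117 and 0.064). The call of NFKB1 was lost with H1975 left out (adjusted p = 0.0653) and that of NFKBIZ with no filter on low values and with quantile normalization (adjusted p = 0.0869 and 0.0794), and both with the replicate block (0.0521 and 0.061). With log2(FPKM + 0.1) the changes of genes near 1 FPKM grew by over 1.5 times in the same direction, to 2.86 for LCN2, 3.03 for LGALS2, 1.29 for MUC1, 1.27 for TSPAN8, 1.69 for CFI, 1.51 for TJP3, 1.1 for CRB3, 1.35 for IFITM3, 0.90 for COL6A1, 0.67 for WNT5A, 0.88 for NR3C2, -0.76 for NR5A2, -0.81 for SLC6A9, -1.41 for IGF2, 1.72 for COL4A3 and 1.05 for COL4A4. With 2 libraries a vector, changes under about the size of the median called change often lost their call without 1 library, so small changes are the least certain.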

Other observations

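Chaperones of the cytosol and mitochondria, a list put together after its members' values were seen and so given without a test of the list, also fell more often than they rose with ZNF263 in PC9. Of 30 members tested, 16 fell, 1 rose and 13 did not pass, 4 falls held, and the median was -0.18, close to that of the endoplasmic reticulum list at -0.18. HSPH1 and DNAJA1, which assist HSP70, fell by 0.45 and fell by 0.38, and PFDN2, a prefoldin subunit, fell by 0.40. HSPB1, a small heat shock protein, rose by 0.36, to 255 FPKM with ZNF263 against 199 FPKM with control. HSPA1A and HSPA1B, near-identical copies between which reads may be divided uncertainly, stood at -0.42 and -0.41, and the call of HSPA1A was lost without control library 2 (adjusted p = 0.0586). HSF1, the heat shock factor, stood at -0.074 and was not called. Ribosome assembly genes, likewise listed after their values were seen, gave 12 falls and 0 rises among 37, with 1 held, that of POLR3G, a subunit of RNA polymerase III, at -0.47. Their median was -0.18 in PC9, -0.24 in HCC827 and -0.13 in H1975.

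Other large changes outside the gene lists, named after their values were seen, included genes of secretion and of liver and kidney epithelium. TM4SF4, a tetraspan protein of liver and gut, had 189 and 192 FPKM in the ZNF263 libraries, against 88.1 and 88.4 FPKM in the control libraries, and rose by 1.10 ± 0.089 (SE, limma adjusted p = 2.91e-06). TRAM1, which helps proteins into the endoplasmic reticulum, rose by 0.89 ± 0.074 (adjusted p = 3.74e-06), with 223 and 238 FPKM with ZNF263 and 119 and 129 FPKM with control, and so moved opposite to the folding genes. DEFB1, a defensin, rose by 1.05 but was not called on log2(FPKM + 0.1) (adjusted p = 0.117), and MMP7, a protease of secretory epithelium, rose by 1.04. COL4A3 and COL4A4, basement membrane chains whose genes lie head to head, rose by 1.06 and 0.69. Among falls, MRC2, an endocytic collagen receptor, fell by 0.78, and TNFRSF12A, the receptor of TWEAK, fell by 0.51, to 61.8 FPKM with ZNF263 against 88.02 FPKM with control.

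By chromosome, median changes lay between -0.066 on chromosome 13 and 0.034 on chromosome 8. Chromosome 8 had 55 genes called higher and 8 called lower of 391 tested, against 8.18% and 5.03% over all genes, and its excess of higher calls was not tested.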
